A study of Mus musculus with 6 samples.

Results

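The genes described here encode splicing factors and RNA helicases, and were read in N2A cells, a mouse neuroblastoma line, after knockdown of *Kap1*. The rule that chose them uses gene names and no measured value, but it was set with earlier results of these data known. A gene was taken where a transcript cluster, the set of probes through which the array reads a gene, carried a single platform symbol beginning with Srsf, Hnrn, Sf3a, Sf3b, Snrp or Prpf, or with Rbm, Ddx or Dhx followed by a digit, leaving out *Ddx60*. This gave 64 genes on 72 transcript clusters, out of 5322 genes named singly in a table of 6951 transcript clusters. Where a gene had several transcript clusters, the one of highest mean intensity was used. Another 5 transcript clusters carry such a symbol together with that of a second gene and were not counted.

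The knockdown cells received 1.5 µg of a plasmid expressing the *Kap1* shRNA, and the control cells a scrambled shRNA instead, in both cases with 300 ng of pTK-Hyg for drug resistance. Hygromycin selection began 3 days after transfection and lasted 7 days, so each sample is a pool of resistant cells of 1 line carrying 1 shRNA. There were 3 Mouse Gene ST arrays per group, labelled as triplicates without saying whether the cultures were transfected separately, and p-values therefore reflect only how far these samples differ among themselves, a spread that may be technical. The values are linear intensities after Robust Multi-array Average (RMA) normalisation by the authors. Every one of the 6951 transcript clusters has an adjusted p of at most 0.05 in this comparison (100%), so the table appears to be a selection on it. A gene that is not listed was not analysed here.

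Splicing removes introns through the spliceosome, a machine built from small nuclear ribonucleoprotein particles (snRNPs), most of them with an RNA and a ring of Sm proteins. SR proteins bind exons and as a rule favour their use, while hnRNPs coat nascent RNA and often oppose it. RNA helicases of the DEAD and DEAH box families use ATP to remodel RNA and protein at every step from splicing to ribosome assembly, export, translation and the sensing of viral RNA. Neurons depend on splicing programmes of their own, and neuroblastoma cells express many of these regulators.

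On the knockdown arrays *Trim28*, the gene of KAP1, had intensities of 866, 861 and 936, against 3377, 3443 and 3267 on the control arrays. It stood at 26.4% of its control level. The array medians were 507 to 528 in the knockdown and 505 to 553 in the control. Of 16 neuronal and neuroblastoma markers 12 were on the table, among them *Tubb3* and *Stmn2*. In this list *Th*, *Dbh* and *Gata2* rose, while *Mycn*, *Gata3*, *Phox2a* and *Chga* fell. Their summed intensity was 22557 to 23740 in the knockdown and 24246 to 25058 in the control. Of 18 markers of glia, fibroblasts, leukocytes and epithelium 3 were listed (*Sox9*, *Pdgfra* and *Cd68*), and *Sox9* fell, at 435 to 533 in the knockdown and 1097 to 1138 in the control. The part of these markers in the results was not tested.

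After *Kap1* knockdown few of the 64 genes changed, and none by as much as 2-fold, which 7.27% of all transcript clusters did. The words changed, rose and fell are kept for genes that passed an adjusted p of 0.05 and a fold of 1.4, in limma with the Benjamini-Hochberg method applied to all 6951 transcript clusters. All of these passed that adjusted p, so only the fold separated changed genes from the others. Adjusted p-values and standard errors computed within a table selected in this way may be too small. The RNA sensor *Dhx58*, the RNA-binding protein genes *Rbm43* and *Rbm19*, the helicase *Ddx41* and the Sm protein gene *Snrpd1* rose. The SR protein genes *Srsf6* and *Srsf2*, the helicase *Ddx17* and the U1 snRNP factor *Prpf39* fell. These are 9 of 64 genes, or 14.1%, against 32.6% of all transcript clusters. By direction, 5 of the 64 rose, against 15% of all transcript clusters, and 4 fell, against 17.6%. Of any size, 29 differences were positive and 35 negative, so that 45.3% were higher in the knockdown, against 51.3% of all transcript clusters. The medians were -0.19 over the 64 genes and 0.17 over all transcript clusters, but the table holds no difference nearer to 0 than 0.118, so the sign of a median shows only which side held the majority. The median absolute log2 fold change was 0.32 over the 64 genes and 0.38 over all transcript clusters, and that of the other 55 members lay between 0.14 and 0.44. In every member the knockdown arrays did not overlap the control arrays, which holds for 100% of the table and so describes its selection.

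*Srsf6* encodes an SR protein that binds exonic enhancers. Its intensities were 902, 958 and 956 on the knockdown arrays, against 1731, 1681 and 1555 on the control arrays. The knockdown arrays lay close together, well under the lowest control array. The mean was 939 ± 31.8 in the knockdown and 1656 ± 90.7 in the control (SD, n = 3 each), which is -0.82 in log2 units (with a standard error of 0.058, adjusted p = 1.94e-06 from limma). *Srsf2*, also called SC35 and a component of nuclear speckles, had 3505, 3786 and 3879 in the knockdown and 6073, 5723 and 5534 in the control. It kept 64.5% of the control level, or -0.63 in log2 units (with a standard error of 0.060, adjusted p = 1.23e-05 from limma).

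*Ddx17* encodes a DEAD box helicase that takes part in splicing, in microRNA processing and as a transcriptional coregulator. It had 915, 961 and 998 in the knockdown, against 1548, 1420 and 1425 in the control. All knockdown arrays were lower, by -0.61 in log2 units (with a standard error of 0.058, adjusted p = 1.26e-05 from limma). *Prpf39*, whose product belongs to the U1 snRNP that recognises the 5′ splice site, had 533, 586 and 586 in the knockdown and 854, 850 and 741 in the control. It fell to 69.7% of its control level, the smallest change among the 9 genes (log2 fold change -0.52, standard error 0.070, adjusted p = 1.16e-04 from limma). It lay just inside the fold threshold, with a fold of 1.43, and was under it without knockdown replicate 1 (-0.47), without control replicate 1 (-0.48) and after quantile normalization (-0.48).

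*Dhx58* encodes LGP2, a cytoplasmic helicase that tunes the sensing of viral RNA by RIG-I and MDA5 and is itself induced by interferon. It showed the largest rise, with 1123, 1184 and 1187 in the knockdown, against 698, 619 and 586 in the control. The lowest knockdown array was far above the highest control array. The mean was 1165 ± 36.1 in the knockdown and 634 ± 57.6 in the control (SD, n = 3 each), a 1.84-fold rise, or 0.88 in log2 units (with a standard error of 0.069, adjusted p = 3.76e-06 from limma).

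*Rbm43*, an RNA-binding motif gene about which little is known, had 621, 653 and 656 in the knockdown and 423, 402 and 375 in the control. It rose 1.61-fold (log2 fold change 0.69, standard error 0.059, adjusted p = 6.61e-06 from limma). *Rbm19* encodes a nucleolar protein needed for ribosome biogenesis and had 478, 522 and 429 in the knockdown, against 334, 324 and 270 in the control. Its standard error was the largest among the 64 genes (log2 fold change 0.62, standard error 0.095, adjusted p = 2.27e-04 from limma).

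*Ddx41*, a spliceosomal DEAD box helicase that has also been described as a sensor of cytoplasmic DNA, had 1029, 1029 and 1043 in the knockdown and 662, 680 and 703 in the control. It rose 1.52-fold (log2 fold change 0.60, standard error 0.049, adjusted p = 4.67e-06 from limma). The tie between a pair of knockdown arrays is no sign of precision, since such ties recur in the table. *Snrpd1*, which encodes a protein of the Sm ring, had 1016, 983 and 1074 in the knockdown, against 703, 727 and 685 in the control, and rose 1.45-fold (log2 fold change 0.54, standard error 0.054, adjusted p = 1.85e-05 from limma).

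**Figure D1:**
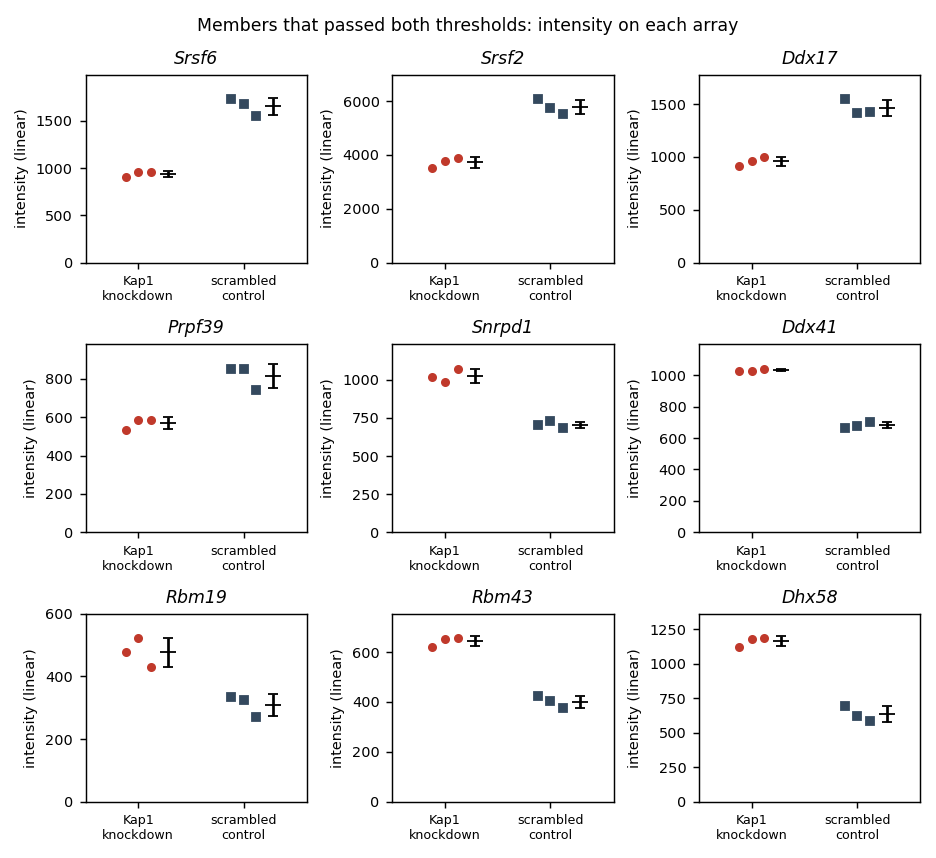
Linear intensity of the 9 changed genes on each array, with *Kap1* knockdown arrays as red circles, scrambled control arrays as dark squares and the mean ± SD (n = 3) as a black bar beside them; each vertical axis starts at 0. *Srsf6*, *Srsf2*, *Ddx17* and *Prpf39* were lower in the knockdown and the other 5 genes higher, and *Dhx58* showed the largest rise at 1.84-fold.

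The promoters of these genes differ in the elements they hold. RefSeq promoter windows of GRCm38.p6 were found for 55 of the 64 genes, 74 windows in all, since a gene can have several start sites. The stretches below are the 120 bases before the start site of the 5 changed genes with exactly 1 window (2 had several and 2 had none here), shown because these genes moved in opposite directions. They are written 5′ to 3′ on the gene's strand, and capitals mark any of 6 short motifs on either strand.
Srsf6 (chr2:162931388-162931507, plus strand): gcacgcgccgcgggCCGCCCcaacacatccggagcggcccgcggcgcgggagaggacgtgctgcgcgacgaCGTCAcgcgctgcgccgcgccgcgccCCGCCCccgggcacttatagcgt
Srsf2 (chr11:116853095-116853214, minus strand): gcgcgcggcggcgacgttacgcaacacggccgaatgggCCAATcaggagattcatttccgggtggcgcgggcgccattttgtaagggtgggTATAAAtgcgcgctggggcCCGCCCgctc
Prpf39 (chr12:65036214-65036333, plus strand): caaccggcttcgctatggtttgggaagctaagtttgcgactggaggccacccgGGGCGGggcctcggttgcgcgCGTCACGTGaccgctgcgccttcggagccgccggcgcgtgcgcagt
Ddx41 (chr13:55536659-55536778, minus strand): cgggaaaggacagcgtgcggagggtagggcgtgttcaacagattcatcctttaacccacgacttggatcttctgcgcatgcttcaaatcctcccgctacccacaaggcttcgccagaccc
Rbm19 (chr5:120116393-120116512, plus strand): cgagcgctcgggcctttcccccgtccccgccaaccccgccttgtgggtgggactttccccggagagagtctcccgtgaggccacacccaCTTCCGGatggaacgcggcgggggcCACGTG

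The motifs were the TATA box TATAAA, the CCAAT box CCAAT, the GC box GGGCGG, the E-box CACGTG, the ETS motif CCGGAAG and TGACG, the core of a cyclic AMP response element, of which only the last overlaps another in these stretches (the E-box of *Prpf39*). In the stretches shown the GC box stood in all 3 from genes that fell, and in neither from genes that rose. *Ddx17*, which fell, and *Dhx58*, *Rbm43* and *Snrpd1*, which rose, are not among them. The stretches are too few to tie the motif to a direction. The E-box stood in *Prpf39*, which fell, and in *Rbm19*, which rose, and *Ddx41* held none of the 6. Over the 250 bases before the start site, TGACG was found in 43.2% of the members' windows and 17.8% of all 32851 windows, the ETS motif in 21.6% and 6.91%, the E-box in 12.2% and 6.02%, the GC box in 56.8% and 32.7%, the CCAAT box in 43.2% and 33.8%, and the TATA box in 8.11% and 12.4%. These are matches of letters, windows of 1 gene can overlap, and the base composition of the windows was not matched.

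Among the SR protein genes 5 of 6 were lower in the knockdown, against a table in which 51.3% of transcript clusters were higher. Beside *Srsf6* and *Srsf2*, which fell, *Srsf3*, the smallest SR protein, had a log2 fold change of -0.40 and *Srsf1*, the founding member of the family, -0.35. *Srsf3* had 3381, 3367 and 3454 in the knockdown and 4379, 4692 and 4421 in the control, a difference under the fold of 1.4. It is read by 3 transcript clusters, of which another had -0.41 and the last passed the fold at -0.54 (standard error 0.117, adjusted p = 0.0017 from limma). *Srsf10*, which represses splicing when dephosphorylated, had -0.14. *Srsf9* was the only SR protein gene above the control, with 1305, 1301 and 1421 in the knockdown, against 1154, 1149 and 1146 in the control (log2 fold change 0.22).

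None of the 9 hnRNP genes changed, and 8 of them were lower in the knockdown, with log2 fold changes from -0.33 to -0.14. Over all transcript clusters 32.6% changed and 51.3% were higher. *Hnrnpm*, a regulator of alternative exons, had the largest difference of them, with 1220, 1216 and 1266 in the knockdown and 1653, 1511 and 1507 in the control (log2 fold change -0.33, standard error 0.055, adjusted p = 3.83e-04 from limma). *Hnrnpa2b1*, which also sorts and traffics RNA, had -0.29. The related G-tract binders *Hnrnph1* and *Hnrnpf* had -0.22 and -0.14. *Hnrnpdl* (-0.24), *Hnrnpul2* (-0.21), *Hnrnpab* (-0.20) and *Hnrnpr* (-0.19) were also below the control. *Hnrnpd*, also called AUF1 and known for binding AU-rich elements of unstable mRNAs, was the exception at 0.26, with 2568, 2585 and 2651 in the knockdown, against 2276, 2196 and 2051 in the control. *Hnrnpd* and its paralog *Hnrnpdl* are close neighbours on chromosome 5, with 1 protein-coding gene between them, and lay on opposite sides of the control.

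The proteins of the Sm ring did not move as 1 group. *Snrpd1* rose, *Snrpd2* had a log2 fold change of 0.29 and *Snrpb* had -0.27. *Snrpd2*, which pairs with *Snrpd1* in the ring, had 1676, 1676 and 1748 in the knockdown and 1381, 1466 and 1325 in the control. Its 4 transcript clusters, which may share probe sequence, lay between 0.27 and 0.35. *Snrpb* had 1551, 1533 and 1546 in the knockdown, against 1857, 1923 and 1798 in the control. Of the SF3 complex, which recognises the branch point, only the small subunit *Sf3b5* was listed (log2 fold change 0.23, standard error 0.068, adjusted p = 0.00756 from limma).

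The PRP factors were split evenly, with 4 genes on each side of the control and only *Prpf39* changed. *Prpf4* and *Prpf3*, partners in the U4/U6 snRNP, were both lower, at -0.44 and -0.39. *Prpf4* was the member nearest to the fold threshold from outside, at 1.36-fold, with 397, 369 and 389 in the knockdown and 556, 511 and 505 in the control. *Prpf19*, the ubiquitin ligase of the complex that activates the spliceosome, had -0.35. Above the control stood *Prpf40b* (0.38), a factor of the U1 snRNP like *Prpf39*, *Prpf18* (0.34), which acts in the second catalytic step, *Prpf6* (0.31), a bridge within the tri-snRNP, and *Prpf38a* (0.14). Thus the U1-associated *Prpf39* and *Prpf40b* lay on opposite sides, as did the tri-snRNP proteins *Prpf3* and *Prpf6*.

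Of the 13 RBM genes 7 were lower and 6 higher, with *Rbm43* and *Rbm19* changed. *Rbm5*, *Rbm6* and *Rbm10*, related regulators of alternative splicing, were all lower, at -0.30, -0.34 and -0.35. *Rbm10* had 332, 341 and 346 in the knockdown, against 442, 419 and 434 in the control. *Rbm5* and *Rbm6* are adjacent genes on chromosome 9. *Rbm4b* (-0.41) had the largest negative value of the group and *Rbm25* (-0.19) the smallest, with *Rbm39*, a relative of the large U2AF subunit, at -0.24 and *Rbm45* at -0.23. On the other side stood *Rbm17*, which competes with U2AF late in intron recognition, at 0.32, the spliceosome component *Rbm22* at 0.34, *Rbm18* at 0.35 and *Rbm33* at 0.23, the last of which read 0.26 on a second transcript cluster.

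**Figure D2:**
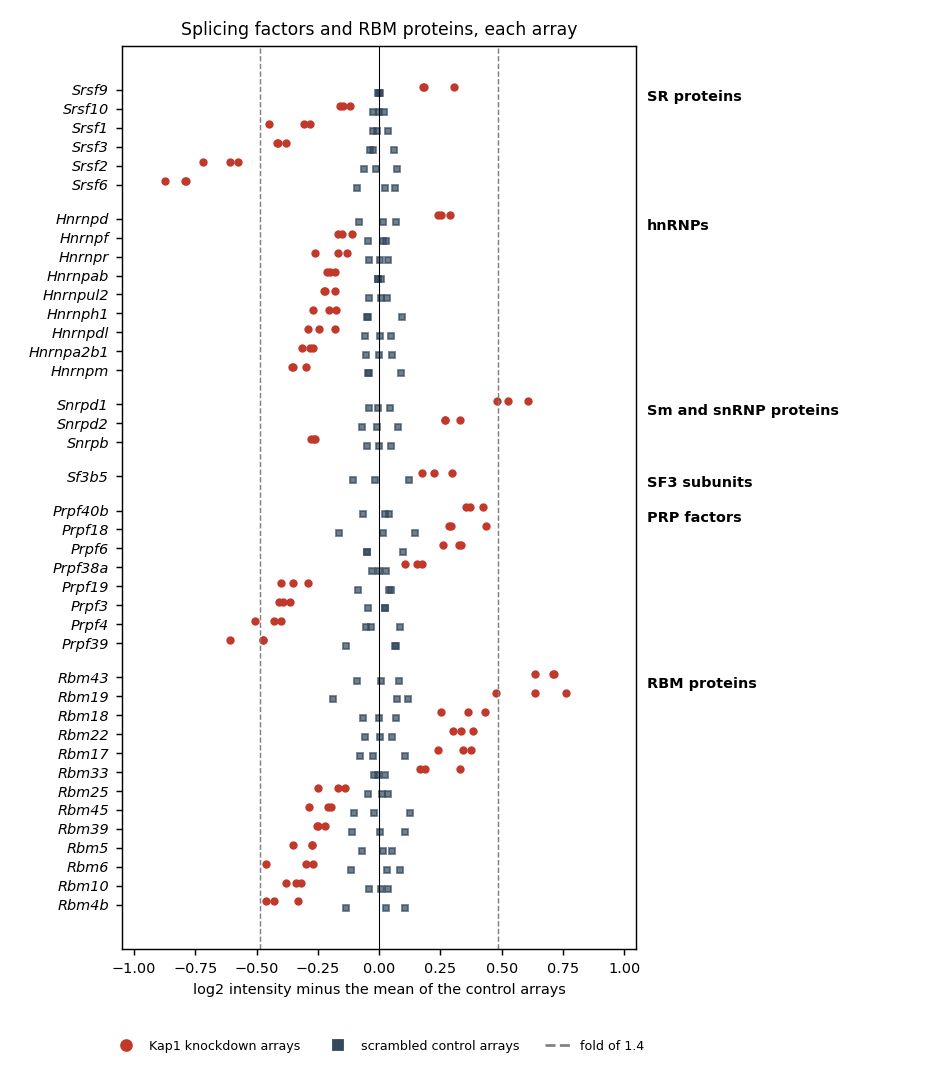
Log2 intensity minus the mean of the control arrays for the splicing factor and RBM genes, grouped by role, with *Kap1* knockdown arrays as red circles, scrambled control arrays as dark squares and dashed lines at a fold of 1.4. Of the SR protein genes 5 of 6 and of the hnRNP genes 8 of 9 lay left of 0, while the PRP factors were split 4 to 4.

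The spliceosomal helicases included the 2 changed genes *Ddx41* and *Ddx17*, in opposite directions, and 5 that did not change. *Ddx46*, which acts in branch site recognition, and *Ddx39b*, which also delivers mRNA to the export machinery, were lower, at -0.34 and -0.33. *Ddx39b* had 2018, 2062 and 2104 in the knockdown, against 2656, 2549 and 2560 in the control. *Dhx35* (0.24), *Ddx23* (0.21), a helicase of the U5 snRNP, and *Dhx8* (0.19), which releases the spliced mRNA, were above the control. *Ddx41* and *Ddx46* lie near each other on chromosome 13, with 4 protein-coding genes between them, and stood on opposite sides of the control.

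None of the 8 helicases of ribosome biogenesis changed, but 7 of them were above the control, with log2 fold changes from 0.18 to 0.34, in a table where 32.6% of transcript clusters changed and 51.3% were higher. *Ddx54* was the highest, with 1533, 1520 and 1445 in the knockdown and 1152, 1203 and 1197 in the control (log2 fold change 0.34, standard error 0.051, adjusted p = 2.03e-04 from limma). Next came *Ddx47* (0.34), *Ddx27* (0.33), *Ddx56* (0.32), *Ddx24* (0.23), *Ddx51* (0.19) and *Ddx49* (0.18). *Ddx56* had 2086, 2036 and 2050 in the knockdown, against 1598, 1761 and 1592 in the control. *Ddx18* alone stood below the control, at -0.29 on both of its transcript clusters. Outside this group *Rbm19*, described above as needed for ribosome biogenesis, rose. *Dhx30*, which is tied to the mitochondrial ribosome, was below the control at -0.23.

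*Dhx9*, RNA helicase A, which resolves double-stranded RNA in the nucleus and was grouped with *Dhx58* as an RNA sensor, had 1373, 1509 and 1545 in the knockdown and 1939, 1917 and 1918 in the control (log2 fold change -0.39). The 2 listed RNA sensors thus lay on opposite sides of the control. *Ddx3x*, which helps ribosomes to scan structured leaders, had 2243, 2223 and 2261 in the knockdown, against 3050, 2900 and 2803 in the control (log2 fold change -0.38, standard error 0.052, adjusted p = 1.17e-04 from limma), and -0.44 on its other transcript cluster. *Ddx25*, best known from male germ cells, had -0.34. Of the remaining helicases *Dhx32* had 0.38 (standard error 0.059, adjusted p = 2.74e-04 from limma) and *Dhx40* 0.29, while *Ddx11*, a DNA helicase of sister chromatid cohesion, had -0.37, *Dhx57* -0.27 and *Dhx30*, which serves the mitochondrial ribosome, -0.23.

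**Figure D3:**
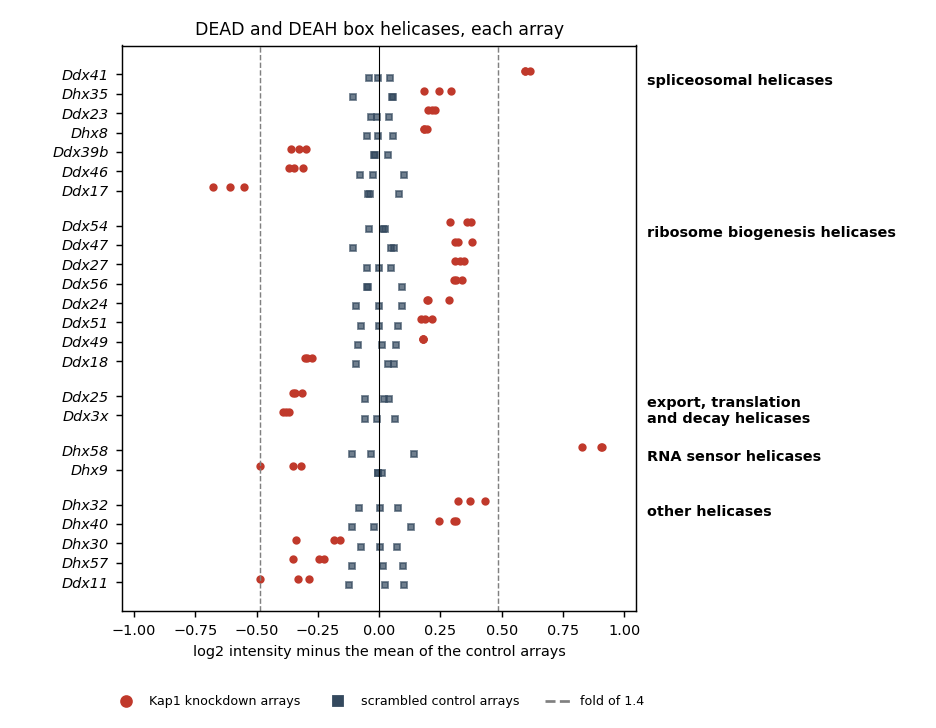
The same plot for the DEAD and DEAH box helicases, with *Kap1* knockdown arrays as red circles, scrambled control arrays as dark squares and dashed lines at a fold of 1.4. Of the ribosome biogenesis helicases 7 of 8 lay right of 0 with none past the fold, and only *Dhx58*, *Ddx41* and *Ddx17* passed it.

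The arrays of a group varied little among themselves. The apparent selection of the table favours both a small spread within groups and a difference between them. Over the 64 genes log2 intensities correlated at 0.998 between knockdown arrays, at 0.996 to 0.997 between control arrays and at 0.935 to 0.945 between the groups, across genes of differing brightness that are not independent replicates. Measured against the control mean, the median over the 64 genes was -0.17, -0.17 and -0.15 on the knockdown arrays and 0.05, 0.00 and -0.05 on control replicates 1, 2 and 3. Knockdown replicate 1 stood lowest of the knockdown arrays for several genes, among them *Dhx9*, *Ddx11*, *Srsf1* and *Srsf2*. The pooled RNA of a culture does not tell a change in all cells from a change in the share of cells of 1 kind.

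For some of these genes the direction of the difference also went with its chromosome, in GRCm38.p6. All 5 members on chromosome 17 and all 4 on chromosome 9 were lower, where 77.1% of the other 227 listed genes and 75.7% of the other 342 were lower too. Of the 7 members on chromosome 5, 6 were higher, as were 87.3% of the other 401 listed genes, and the exception was *Hnrnpdl*. Both members on chromosome 18, *Snrpd1* and *Rbm22*, were higher, like 80.4% of the other 168. Both members on chromosome X and all 3 on chromosome 19 were lower, like 70.4% and 62.0% of the other genes there. On chromosome 2, 7 of 11 members were higher, as were 59.8% of the other genes. Some other chromosomes ran the other way. On chromosome 7 *Snrpd2* and *Dhx32* were higher and 77.3% of the other 405 genes were lower, and on chromosome 8 *Ddx49* was higher and 70.1% of the other 278 were lower. On chromosome 4, 3 of 4 members were lower and 61.4% of the other genes higher. On chromosome 12, 2 of 3 were lower and 62.9% higher, and on chromosome 6, 2 of 3 were lower and 60.1% higher. On chromosome 3 *Prpf3* was lower and 59.0% of the others were higher. On chromosome 1 both members were lower, like 53.2% of the others, and on chromosome 10 *Sf3b5* was higher, like 59.9%. Members were split evenly on chromosomes 11 and 13. On chromosome 15, 2 of 3 were higher, as were 49.5% of the others. Of the 9 changed genes *Rbm19* lies on chromosome 5 and *Snrpd1* on chromosome 18. Without the members on chromosomes 5, 7, 9, 17 and 18 the counts were 3 that rose and 4 that fell among 44 genes. The share of all transcript clusters that changed on the chromosomes kept was not computed. Those kept include chromosomes 8 and X, where 70.1% and 70.4% of the other genes were lower. *Srsf6* and *Rbm43* both lie on chromosome 2 and *Srsf2* and *Dhx58* on chromosome 11, and each of these pairs moved in opposite directions. The part of the chromosomes in these results was not tested.

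**Figure D4:**
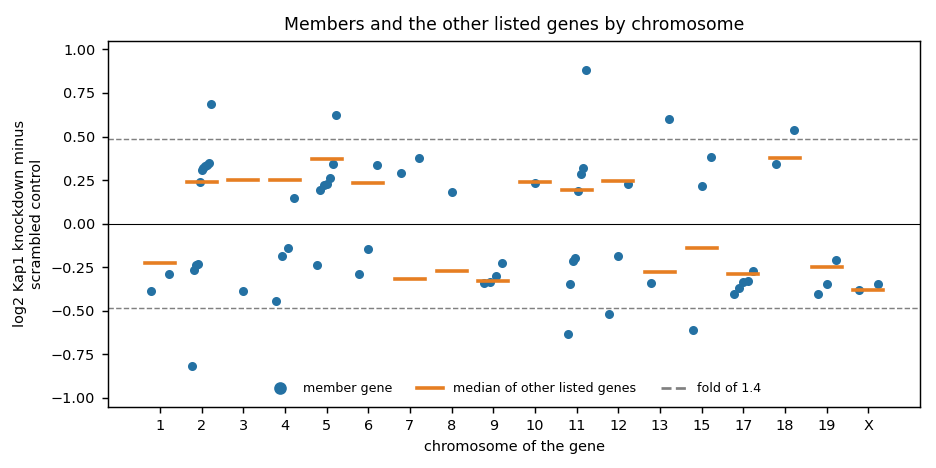
Log2 difference, *Kap1* knockdown minus scrambled control, of each of the 64 genes by the chromosome it lies on (blue circles), with the median of all other listed genes of that chromosome (orange bars) and dashed lines at a fold of 1.4. The members of chromosomes 9 and 17 lay below 0 and those of chromosomes 7 and 18 above it.

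Splicing and RNA-processing genes outside the naming rule were read from a separate list of 169 genes, of which 64 were on the table. Here 4 rose and 5 fell, 14.1% of the 64, against 32.6% of all transcript clusters. *Fam50a*, a spliceosome component, had 605, 634 and 604 in the knockdown, against 386, 419 and 366 in the control (log2 fold change 0.66, standard error 0.061). *Srpk2*, a kinase of SR proteins, had 951, 947 and 1020 in the knockdown and 707, 654 and 556 in the control (0.61, standard error 0.084). *Thoc1*, of the THO complex that couples transcription to export, and *Zmat2*, a tri-snRNP protein, had 0.61 and 0.59. *Srpk2* and the SR protein genes *Srsf2* and *Srsf6* moved in opposite directions. *Srpk1*, another kinase of SR proteins, lay below the control at -0.22 without passing the fold.

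The genes of that list that fell were *Lsm2*, which binds U6 RNA (-0.57), *Wtap*, of the complex that methylates adenosine in mRNA (-0.56), *Syncrip*, also called hnRNP Q (-0.56), the paraspeckle protein *Sfpq* (-0.52) and the neuronal RNA-binding protein *Elavl2* (-0.49). *Sfpq* had 1641, 1668 and 1654 in the knockdown, against 2458, 2344 and 2335 in the control. Of all 64 genes of the list 41 were lower and 23 higher, so that 35.9% were higher, against 51.3% of all transcript clusters. *Zmat2* and *Thoc1* lie on chromosome 18 and *Srpk2* on chromosome 5, and without chromosomes 5, 7, 9, 17 and 18 only *Fam50a* among those that rose and 2 of those that fell, *Sfpq* and *Elavl2*, were left. Without control replicate 3 the list had 8 genes that fell.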

How the data were processed

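Expression was measured on 6 single-colour arrays, 3 per group, grouped by their labels. The authors normalised them by RMA in GeneSpring and deposited linear intensity values, given as whole numbers in the table used here and with decimals in another. The submitters' notes name limma. Log2 intensities were fitted with limma 3.58.1 (lmFit, eBayes) in R 4.3.3, with group as the only term and the Benjamini-Hochberg method across the 6951 transcript clusters. The fit was tested on simulated data in which most transcript clusters were unchanged, so that test does not cover a table selected on its p-values. Means and figures were made in Python 3.11.15 with pandas 2.3.3 and matplotlib 3.10.9.

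Symbols come from the platform annotation, and all 64 member genes were matched to RefSeq (GRCm38.p6) by gene identifier for their chromosomes; where the probes of a transcript cluster lie was not looked up. Members, role groups and the list of further splicing genes were chosen with earlier results of these data known. Named genes are *Trim28*, the changed members and the largest difference in each role group without a changed member. To these come the 4 largest rises and falls of the further list. All other members, with *Elavl2* and *Srpk1*, were named after their values were seen. The number of arrays limits the precision, and no set test was run. The alternatives were the table with decimals, median centring, quantile normalization, a replicate block, eBayes with trend and robust settings, a filter on log2 intensity under 6, 16 added before log2, stricter limits on fold (2) or adjusted p (0.01), averaging the transcript clusters of a gene, leaving out 5 chromosomes and leaving out each array.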

Additional observations from a re-analysis of the deposited data

How the results depend on the processing

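No member turned its direction under any of the alternative fits, including each array left out. Leaving out an array could not turn one, since the groups overlap in no member. The smallest absolute log2 fold change among the members was 0.14, which left little room for a turn under the other fits. At a fold of at least 2 the counts of changed members (9), of those that rose (5) and of those that fell (4) all became 0, as did the 4 rises and 5 falls of the further list of splicing genes. Over all transcript clusters 153 rose and 352 fell at that fold, or 7.27%. Without chromosomes 5, 7, 9, 17 and 18 the rises were 3 among the members, and in the further list 1 rose and 2 fell. The matching share of all transcript clusters was not computed. With 1 array left out, 8 to 9 members changed, 5 rose and 3 to 4 fell, their median log2 difference was -0.20 to -0.16, and in the further list 4 to 5 rose and 4 to 8 fell, with 8 without control replicate 3; the cause was not tested. Of 233 values of single genes under the alternatives 221 kept their side of the thresholds and 12 lost it, 9 of them at a fold of at least 2 and 3 of them *Prpf39*. Over all transcript clusters 1217 rose and 1123 fell after median centring, against 1043 and 1225. Replicate numbers name samples only, since deviations of same-numbered arrays correlated at -0.17, -0.13 and 0.04, and with a replicate block 9 members changed.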
